A study of Homo sapiens with 72 samples.

Results

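The mitotic genes described here are 45 regulators and structural genes of cell division, found by gene name in the deposited gene table, which lists 19324 genes in all. All 45 were in the table, and all 45 passed the filter on low counts that left 15470 genes for testing. They comprise 10 genes of mitotic entry (cyclins, kinases and phosphatases), 7 genes of the spindle checkpoint and anaphase, 9 genes of the centromere, kinetochore and chromosomal passenger complex, 15 genes of spindle motors, spindle proteins and cytokinesis, and 4 transcription factors and chromosome proteins. AURKB, of the passenger complex, and PLK4, which starts centriole duplication, were counted with the kinases of mitotic entry.

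The study followed polyadenylated RNA after ultraviolet (UV) irradiation in HEK293 Flp-In T-REx cells, an established human embryonic kidney line with an integrated recombination site, and asked how blocking the kinase ATR alters it. The 4 lines are named CSB_KO, STK19_KO1, STK19_KO2 and WT. CSB_KO cells are knocked out for CSB, the product of ERCC6, and the 2 STK19 lines are separate knockouts of STK19. CSB is represented by 1 knockout line, and whether each line is a single clone is not stated in the labels. Each line was sampled untreated (0 h), at 3 h without inhibitor, and at 4 h and 20 h either with the ATR inhibitor VE-821 at 3 µM (ATRi) or with its solvent DMSO, both of which were added after 3 h of recovery. Each of the 24 groups held 3 libraries. No source used here states the UV dose, irradiation is not marked sample by sample, and the design text counts 4 h and 20 h from irradiation whereas the sample descriptions count them from the addition of ATRi or DMSO. Nothing in the labels says that the 3 libraries of a group came from separate cultures, so the p-values measure the spread between these libraries, which may be technical.

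Mitotic genes are transcribed mostly in the G2 and M phases. The DREAM complex holds their promoters silent in quiescent and G1 cells, and the MuvB core joined by B-MYB (MYBL2) and then FOXM1 activates them later in the cycle, largely through a CHR element near the transcription start with CCAAT boxes upstream that bind NF-Y. After UV damage, ATR and its target CHK1 restrain the CDC25 phosphatases and so the activation of CDK1 with cyclin B, while CSB and STK19 act in transcription-coupled repair, which clears lesions that stall RNA polymerase II.

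Promoters of 5 members are printed because they show the range of these elements among genes that moved in opposite directions below. RefSeq windows (build GRCh38.p14) from 250 bases before to 50 bases after the gene start were matched for 39 of the 45 members, and AURKA, BIRC5, FOXM1, TPX2, TTK and UBE2C had no match. All 5 windows lie on the plus strand: CCNB1 at chr5:69166900-69167199, CDC20 at chr1:43358731-43359030, PLK1 at chr16:23678639-23678938, KIF2C at chr1:44739587-44739886 and CDC25B at chr20:3786701-3787000. Capitals mark TTTGAA and TTTAAA, the common CHR forms, and CCAAT, each on either strand, so that TTCAAA is TTTGAA and ATTGG is CCAAT read on the other strand.
CCNB1: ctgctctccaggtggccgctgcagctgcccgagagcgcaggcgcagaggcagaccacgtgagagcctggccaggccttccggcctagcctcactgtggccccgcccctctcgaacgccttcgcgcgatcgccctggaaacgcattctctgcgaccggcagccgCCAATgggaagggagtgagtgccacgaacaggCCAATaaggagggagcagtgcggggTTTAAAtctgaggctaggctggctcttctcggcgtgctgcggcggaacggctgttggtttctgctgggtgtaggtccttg
CDC20: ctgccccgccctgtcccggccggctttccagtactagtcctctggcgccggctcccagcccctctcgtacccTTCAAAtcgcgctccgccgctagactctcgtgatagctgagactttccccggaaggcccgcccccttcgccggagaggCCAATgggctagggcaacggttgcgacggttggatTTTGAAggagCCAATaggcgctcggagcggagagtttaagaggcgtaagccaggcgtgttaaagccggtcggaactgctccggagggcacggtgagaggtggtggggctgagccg
PLK1: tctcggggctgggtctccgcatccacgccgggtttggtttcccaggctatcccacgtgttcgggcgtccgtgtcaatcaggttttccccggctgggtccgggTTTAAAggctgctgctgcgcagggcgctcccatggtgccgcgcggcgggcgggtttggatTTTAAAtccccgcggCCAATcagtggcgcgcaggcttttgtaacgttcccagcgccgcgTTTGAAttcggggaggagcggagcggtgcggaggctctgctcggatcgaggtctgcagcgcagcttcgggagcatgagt
KIF2C: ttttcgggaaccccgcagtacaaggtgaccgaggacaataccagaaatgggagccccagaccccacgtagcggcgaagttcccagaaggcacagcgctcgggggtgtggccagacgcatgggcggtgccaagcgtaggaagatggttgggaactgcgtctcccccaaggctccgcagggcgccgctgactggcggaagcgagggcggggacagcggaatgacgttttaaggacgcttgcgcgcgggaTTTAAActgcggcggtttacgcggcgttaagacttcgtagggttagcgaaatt
CDC25B: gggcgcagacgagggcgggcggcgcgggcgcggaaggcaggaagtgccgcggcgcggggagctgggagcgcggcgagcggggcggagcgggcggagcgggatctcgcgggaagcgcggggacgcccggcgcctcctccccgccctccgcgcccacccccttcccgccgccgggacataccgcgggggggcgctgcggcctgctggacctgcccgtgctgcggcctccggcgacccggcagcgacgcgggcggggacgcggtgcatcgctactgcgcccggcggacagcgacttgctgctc
The CCNB1 window, the promoter of cyclin B1, held 2 CCAAT boxes and 1 TTTAAA. The CDC20 window held 2 CCAAT boxes and 2 copies of TTTGAA, and the PLK1 window held 1 CCAAT box, 1 TTTGAA and 2 copies of TTTAAA. KIF2C held only a TTTAAA at the start site, and CDC25B held none of the 3 motifs. Across the 39 matched members, TTTGAA was present in 26 (66.7%), against 9.83% of the promoters of the 12132 tested genes with a window. TTTAAA was present in 13 members (33.3%, against 8.01%), and CCAAT in 28 (71.8%, against 36.5%). TTTGAA and CCAAT occurred together in 21 members (53.8%, against 4.14%). A match is a description of the letters in the window, and no binding was measured.

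Library totals ranged between 36.5 M and 213 M counts, with a median of 56.3 M, and the member with the fewest counts in any library, CENPA, still had 169. Levels are given as counts per 1 M library counts (CPM), scaled by TMM factors, and changes as log2 fold changes of the first-named group over the second. Called means a Benjamini-Hochberg adjusted p below 0.05 over all 15470 genes by edgeR's quasi-likelihood test, which is also the source of each adjusted p below, and rose and fell are used only of called genes. In 5 libraries the counts differed from both others of their group by a chi-square per gene above 20: STK19_KO1 3 h replicate 3, STK19_KO1 4 h ATRi replicate 1, and replicate 1 of WT at 0 h, 3 h and 4 h DMSO. ERCC6 averaged 6.97 CPM in CSB_KO cells and 23.5 CPM in WT cells at 0 h, whereas STK19 mRNA averaged 17.5 CPM in STK19_KO1, 17.1 CPM in STK19_KO2 and 19.0 CPM in WT cells, so the STK19 knockouts could not be checked from RNA levels. NEFL (91.2 to 270 CPM) and VIM (660 to 1424 CPM), both known in HEK293 cells, were present in every library. KRT8, KRT18 and ENO2, also known there, had medians of 145, 95.3 and 55.4 CPM. PAX2, LHX1 and NEFM, known there as well, had medians of only 2.45, 2.95 and 0.55 CPM. Markers of blood cells and keratinocytes (PTPRC, CD3E, HBB, KRT5, KRT14) had a median of 0 CPM. The fibroblast genes COL1A1 and COL3A1 had medians of 8.39 and 0.70 CPM. In bulk RNA, fewer dividing cells and less RNA per dividing cell cannot be told apart. Reads of KIF4A and PTTG1 could be shared with the copies KIF4B and PTTG2, which had at most 27 and 32 counts in any library.

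Before irradiation the 45 genes spanned a wide range of levels. Per kilobase of exon, the highest in WT cells at 0 h were MYBL2 (193 CPM per kb), CCNB1 (106), CDC20 (105) and TPX2, the activator of Aurora A (96.1). The lowest were PLK4, which starts centriole duplication (7.78 CPM per kb), CDC25C (7.42) and KIF18A (5.54). The knockout lines shared the same WT libraries as comparators at 0 h. In CSB_KO cells 5 members were higher and 3 lower than in WT, against 19.1% and 15.7% of all tested genes. In STK19_KO1 cells 21 were higher and 3 lower (all genes, 29.5% and 19.2%), and in STK19_KO2 cells 11 were higher and 10 lower (26.6% and 20.7%). Scaling by library totals alone gave 12 higher and 6 lower in STK19_KO1, and without the 5 libraries that lay apart the CSB_KO counts were 9 higher and 7 lower.

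AURKB, the kinase of the passenger complex, was higher in all 3 knockout lines at 0 h. It had 130, 133 and 127 CPM in CSB_KO, 144, 143 and 147 CPM in STK19_KO1, 139, 128 and 136 CPM in STK19_KO2, and 86.0, 82.0 and 86.6 CPM in WT libraries. No knockout library overlapped the WT libraries, and the log2 differences were 0.62, 0.77 and 0.66 in the order of the lines given (SE 0.05 each, adjusted p at most 1.7e-14 by edgeR). TOP2A, the DNA topoisomerase that separates sister chromatids, had 700, 685 and 697 CPM in CSB_KO, 528, 519 and 527 CPM in STK19_KO1, 706, 699 and 704 CPM in STK19_KO2, and 502, 419 and 428 CPM in WT libraries. Its log2 differences were 0.63, 0.22 and 0.64. The STK19_KO1 difference was not called when WT replicate 2 was left out. CKAP2, a spindle protein, was also higher in all 3 lines (log2 0.36, 0.48 and 0.46), as was the kinetochore gene SPC24 (0.34, 0.45 and 0.24). CDC25B, a phosphatase that activates CDK1, was lower in all 3 (log2 -0.38, -0.53 and -0.48). HMMR, a spindle-associated protein, had log2 values of -0.11 in CSB_KO (not called), -0.30 in STK19_KO1 and -0.30 in STK19_KO2, and both STK19 calls were lost without WT 0 h replicate 1. SPC25, of the same NDC80 complex as SPC24, had -0.15 and -0.20 in CSB_KO and STK19_KO1, neither called, and was lower in STK19_KO2 (-0.51). PRC1, which bundles the spindle midzone, was lower in STK19_KO2 (-0.53) but higher in STK19_KO1 (0.17).

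At 3 h most mitotic genes were lower than at 0 h in every line. In CSB_KO cells 26 fell and 6 rose (all tested genes, 29.3% fell and 32% rose). In STK19_KO1 cells 34 fell and 5 rose (30.6% and 29.9%). In STK19_KO2 cells 36 fell and 2 rose (28.5% and 29.1%), and in WT cells 24 fell and 10 rose (28.8% and 33.6%). The median log2 fold changes of the members were -0.24, -0.42, -0.38 and -0.18 in the same order. In WT cells, scaling by library totals alone gave 33 that fell and 3 that rose, and a fit of only the groups compared gave 14 that fell and 2 that rose. Without the 5 libraries that lay apart, 27, 37, 37 and 25 fell and 8, 5, 4 and 7 rose in the 4 lines. The WT median was then -0.28. In all 4 lines 23 members fell, against 20.4% of all genes, and 1 member, CDC25B, rose, against 18.5% of all genes.

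Among the genes of mitotic entry, 7, 7, 9 and 6 of 10 fell in CSB_KO, STK19_KO1, STK19_KO2 and WT cells. AURKA, the Aurora kinase of the centrosome and spindle, fell in all 4 lines, with log2 fold changes of -0.78, -0.92, -0.78 and -0.71 (SE 0.05 each). PLK1, which drives entry and spindle assembly, had 153, 161 and 165 CPM at 3 h in CSB_KO against 207, 212 and 211 CPM at 0 h. It had 95.8, 106 and 118 CPM at 3 h in STK19_KO1 against 174, 180 and 175 CPM at 0 h. In STK19_KO2 the values were 92.3, 95.6 and 98.1 CPM at 3 h against 157, 162 and 167 CPM at 0 h, and in WT 108, 133 and 133 CPM against 155, 177 and 180 CPM. In no line did the 3 h and 0 h libraries of PLK1 overlap, and the log2 fold changes were -0.40, -0.73, -0.76 and -0.45 (SE 0.06 each, adjusted p at most 3.7e-08 by edgeR).

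CCNB1, cyclin B1, fell less. It had 190, 187 and 191 CPM at 3 h against 248, 250 and 247 CPM at 0 h in CSB_KO, and 283, 216 and 218 CPM at 3 h against 287, 260 and 268 CPM at 0 h in WT. The WT groups overlapped, with replicate 1 at 3 h, which lay apart from its group, among the highest libraries. The log2 fold changes of CCNB1 were -0.39, -0.50, -0.61 and -0.18 in the 4 lines. Without the 5 libraries that lay apart the WT value was -0.30, and leaving out WT 3 h replicate 2 or 3 alone took the WT change to -0.11 and -0.12, no longer called. CDK1, its kinase partner, fell in the 3 knockout lines (-0.33, -0.20 and -0.40) and had 241, 158 and 154 CPM at 3 h against 217, 193 and 196 CPM at 0 h in WT, a log2 difference of -0.14 that was not called. The STK19_KO1 call of CDK1 was lost when any of 3 single libraries was left out (-0.14 without 3 h replicate 2). Without the 5 libraries that lay apart the WT value of CDK1 was -0.34. CDC25B rose in all 4 lines by 0.34, 0.35, 0.34 and 0.30 (SE 0.06 each, adjusted p at most 8.2e-06 by edgeR).

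In the checkpoint and anaphase group the kinases fell while securin and MAD2L1 rose in CSB_KO, STK19_KO1 and WT. TTK (MPS1), the apical checkpoint kinase, fell, with log2 fold changes of -0.95, -1.04, -0.89 and -0.75 in the 4 lines, and BUB1B (BUBR1) at -0.51, -0.90, -0.80 and -0.54. BUB1 fell, with log2 fold changes of -0.41, -0.60, -0.57 and -0.28. PTTG1, the separase inhibitor securin, rose in CSB_KO (0.36), STK19_KO1 (0.30) and WT (0.57) and had 0.17 in STK19_KO2, not called. In STK19_KO1 the rise of PTTG1 was not called without replicate 3 at 3 h (0.17), the library with 127 CPM against 99.5 and 98.1 CPM in the other 3 h libraries. MAD2L1, the checkpoint inhibitor of CDC20, had the same pattern, with log2 values of 0.33, 0.26, 0.15 (not called) and 0.43. Without the 5 libraries that lay apart the WT values of PTTG1 and MAD2L1 were 0.42 and 0.28. CDC20, the activator of the anaphase-promoting complex, fell in the STK19 knockouts (-0.15 and -0.28), the STK19_KO1 call being lost when any of 5 single libraries was left out (-0.06 without 3 h replicate 1), and had 0.04 in CSB_KO and 0.03 in WT, neither called, the WT value turning to -0.17 under library totals.

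In the mean of the 4 lines, the largest decreases were those of KIF23, KIF18A, ANLN and CENPA. KIF23, the kinesin of the centralspindlin complex in cytokinesis, had 67.3, 55.9 and 58.3 CPM at 3 h in CSB_KO against 182, 180 and 184 CPM at 0 h. It had 85.0, 79.6 and 74.3 CPM at 3 h in STK19_KO1 against 197, 194 and 190 CPM at 0 h, and 83.3, 82.5 and 81.9 CPM at 3 h in STK19_KO2 against 191, 185 and 192 CPM at 0 h. In WT the values were 95.8, 80.0 and 81.0 CPM at 3 h against 214, 184 and 181 CPM at 0 h. Every 3 h library lay below every 0 h library of all 4 lines. The log2 fold changes of KIF23 were -1.59, -1.28, -1.20 and -1.17 (SE 0.06 each, adjusted p at most 5.4e-25 by edgeR).

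CENPA, the histone H3 variant of centromeres, had 5.28, 5.39 and 5.38 CPM at 3 h in CSB_KO against 14.7, 15.7 and 14.1 CPM at 0 h. In WT it had 8.19, 7.68 and 7.33 CPM at 3 h against 16.3, 17.5 and 16.7 CPM at 0 h. No 3 h library of any line overlapped a 0 h library, and CENPA fell, with log2 fold changes of -1.48, -0.98, -1.08 and -1.12. KIF18A, a kinesin that shortens kinetochore microtubules, fell, with log2 fold changes of -1.32, -1.18, -1.10 and -1.16, and ANLN (anillin), a scaffold of the contractile ring, at -1.08, -1.45, -1.35 and -0.87. INCENP, the scaffold of the passenger complex, fell in all 4 lines (-0.70, -0.90, -0.77 and -0.75), whereas BIRC5 (survivin), of the same complex, rose in CSB_KO (0.31), STK19_KO1 (0.24) and WT (0.36) and had 0.05 in STK19_KO2, not called. Of the 15 spindle and cytokinesis genes, 9, 14, 14 and 7 fell in CSB_KO, STK19_KO1, STK19_KO2 and WT. KIF20A, a kinesin of the midzone, fell in the STK19 knockouts (-0.16 and -0.17) and had -0.04 in CSB_KO and 0.08 in WT, neither called, the WT value turning to -0.13 under library totals.

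Of the transcription factors, FOXM1 moved little at 3 h. FOXM1 had 209, 209 and 210 CPM at 3 h against 199, 198 and 195 CPM at 0 h in CSB_KO, a log2 difference of 0.09 that was not called. It had 204, 239 and 239 CPM at 3 h against 191, 204 and 214 CPM at 0 h in WT, where it rose by 0.17, a direction that turned to -0.0360 under library totals. FOXM1 had -0.11 in STK19_KO1, a call that was lost when any of 4 single libraries was left out, and -0.10 in STK19_KO2, not called. MYBL2 (B-MYB) rose by 0.30 in CSB_KO and 0.30 in WT and had 0.06 and -0.03 in the STK19 knockouts, neither called. TOP2A fell in all 4 lines (-0.24, -0.58, -0.59 and -0.21), and its WT call was lost without WT 0 h replicate 1 or WT 3 h replicate 2 or 3.

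**Figure D1:**
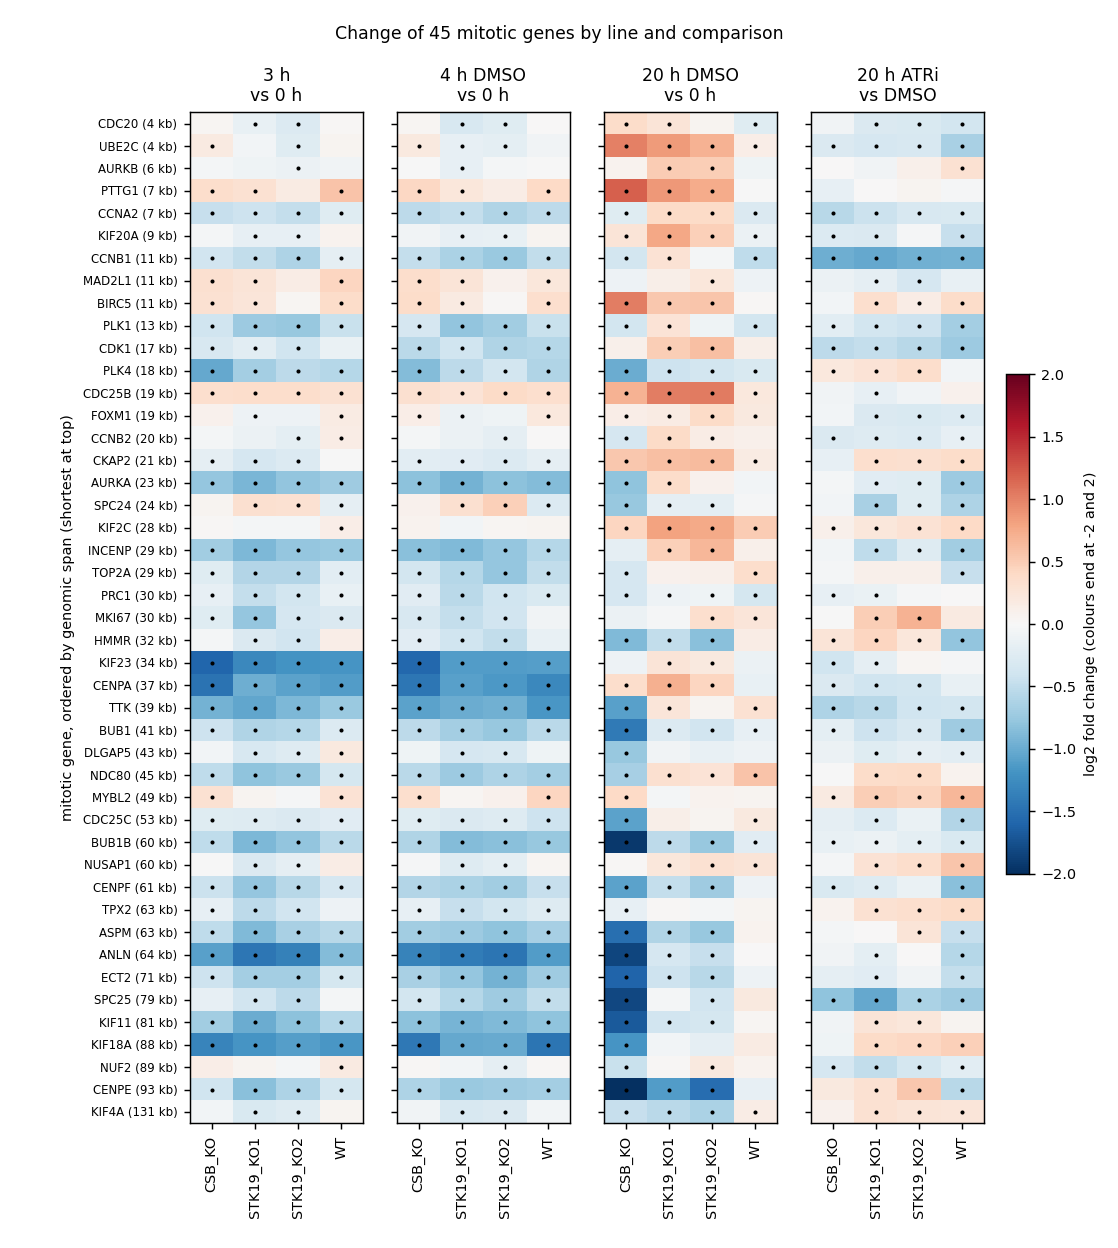
Log2 fold changes of the 45 mitotic genes (vertical, ordered by genomic span in kb, shortest at the top) in CSB_KO, STK19_KO1, STK19_KO2 and WT cells (horizontal) for each later time in DMSO or without inhibitor against 0 h and for ATRi against DMSO at 20 h; dots mark called changes and colours end at -2 and 2. KIF23, CENPA, KIF18A and ANLN are the darkest at 3 h, and CDC25B is red in all 4 lines at 3 h. At 20 h in DMSO most of the long genes at the bottom are blue in CSB_KO and pale in WT.

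The difference from WT in the 3 h response was tested directly by an interaction, with the WT libraries shared between both tests. For CSB_KO minus WT, 4 members were called, all negative (all tested genes, 8.3% negative and 1.48% positive): PLK4 at -0.45, KIF23 at -0.41, CENPA at -0.35 and CCNA2, cyclin A2, at -0.22. The count was 0 in a fit of only the groups compared and 2 to 7 when single libraries were left out, and the CENPA call was lost without any of 8 libraries. For the mean of the STK19 knockouts minus WT, 30 were called negative and 1 positive (17.1% and 10.1%), with a member median of -0.27. The farthest were ANLN (-0.53), DLGAP5, a spindle assembly factor (-0.48), HMMR (-0.46) and, on the positive side, SPC24 (0.49). DLGAP5 had log2 fold changes of -0.32 and -0.25 in the STK19 knockouts, where it fell, against 0.20 in WT, where it rose. Without the 5 libraries that lay apart the interactions of ANLN, DLGAP5, HMMR and SPC24 were -0.51, -0.33, -0.37 and 0.56. In a fit of only the groups compared the STK19 counts were 10 negative and 1 positive. Under library totals they were 8 negative and 3 positive, and all genes together moved by a median of 0.16 in that contrast.

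The 4 h DMSO libraries gave a similar count of lower members. In CSB_KO cells 28 fell and 7 rose against 0 h (all tested genes, 30.2% and 33.6%). In STK19_KO1 36 fell and 5 rose (30% and 27.9%), in STK19_KO2 36 fell and 2 rose (29.8% and 31.6%), and in WT 27 fell and 6 rose (31.3% and 35%). In all 4 lines 26 members fell, against 21.6% of all genes, and 1 member, CDC25B, rose, against 18.9% of all genes. ANLN fell, with log2 fold changes of -1.34, -1.41, -1.46 and -1.12, CENPA at -1.45, -1.08, -1.15 and -1.29, KIF18A at -1.42, -1.02, -1.0 and -1.47, and KIF23 at -1.57, -1.11, -1.12 and -1.11. CDC25B rose by 0.32, 0.27, 0.38 and 0.33. The 3 h, 4 h and 20 h comparisons share the 0 h libraries of each line, so their values stand side by side and are not independent of each other.

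By 20 h in DMSO more members were below than above 0 h in CSB_KO cells, and more above than below in the other lines under TMM scaling. In CSB_KO cells 27 members were below and 11 above 0 h (all tested genes, 40.5% fell and 38.3% rose), with a median log2 fold change of -0.34. In STK19_KO1 13 fell and 22 rose (37% and 32.1%), with a median of 0.12. In STK19_KO2 14 fell and 20 rose (37.8% and 33.8%), with a median of 0.08. In WT 9 fell and 12 rose (25.4% and 30%), with a median of 0.05. A change of at least 2-fold among called members was seen for 12 lower and 3 higher genes in CSB_KO, for 1 lower and 1 higher in each STK19 knockout, and for none in WT. The share of all tested genes at this size is not given here. In CSB_KO all tested genes spanning above 60 kb had a median of -0.92, so large decreases were not confined to the members. Under library totals the counts of called members lower and higher were 35 and 6 in CSB_KO, 19 and 17 in STK19_KO2, and 7 and 17 in WT, and all genes together moved by a median of -0.31 in CSB_KO. In all 4 lines 5 members rose, CDC25B, CKAP2, FOXM1, KIF2C and UBE2C (15.3% of all genes), with FOXM1 in CSB_KO turning from 0.13 to -0.17 under library totals. In all 4 lines 4 members fell, BUB1, BUB1B, PLK4 and PRC1 (16.3% of all genes).

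The members that stayed lowest at 20 h were checkpoint, kinetochore and spindle genes. CENPE, the kinetochore kinesin that aligns chromosomes, had 27.7, 28.8 and 28.1 CPM at 20 h in CSB_KO against 119, 117 and 125 CPM at 0 h. It had 55.3, 53.9 and 57.4 CPM at 20 h in STK19_KO1 against 119, 118 and 123 CPM at 0 h, and 40.2, 43.5 and 40.2 CPM at 20 h in STK19_KO2 against 121, 120 and 115 CPM at 0 h. In WT the values were 113, 103 and 112 CPM at 20 h against 139, 113 and 118 CPM at 0 h. The groups were far apart in each knockout line and nearly touched in WT, where 113 CPM was the highest 20 h and the lowest 0 h library. CENPE fell, with log2 fold changes of -2.10, -1.11 and -1.52 in CSB_KO, STK19_KO1 and STK19_KO2 (SE 0.09 each) and had -0.17 in WT, not called (adjusted p = 0.087 by edgeR).

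BUB1B fell, with log2 fold changes of -1.93, -0.52, -0.76 and -0.22 in CSB_KO, STK19_KO1, STK19_KO2 and WT. ASPM, which focuses spindle poles, fell in the knockouts (-1.51, -0.60 and -0.76) and had 0.06 in WT, not called. BUB1 had 43.0, 39.5 and 42.9 CPM at 20 h against 111, 113 and 110 CPM at 0 h in CSB_KO, and 103, 95.9 and 101 CPM at 20 h against 123, 106 and 107 CPM at 0 h in WT. All 20 h libraries of BUB1 lay below all 0 h libraries in both lines, and the log2 fold changes were -1.42, -0.28, -0.39 and -0.16. The WT fall of BUB1 was not called without WT 0 h replicate 1 (-0.09) or 20 h DMSO replicate 2 (-0.13). KIF11 (Eg5), the motor that separates spindle poles, had -1.68, -0.39, -0.34 and 0.05, the last not called. ANLN, ECT2, the exchange factor that activates RhoA in cytokinesis, and SPC25 fell in CSB_KO at -1.84, -1.60 and -1.82 and had 0.00, -0.10 and 0.20 in WT, none of them called. TTK and CDC25C fell in CSB_KO (-1.08 and -1.06) and rose in WT (0.30 and 0.19).

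The members with the highest mean change over the 4 lines at 20 h were CDC25B, PTTG1 and UBE2C. PTTG1 had 157, 170 and 165 CPM at 20 h in CSB_KO against 70.3, 73.3 and 70.6 CPM at 0 h. It had 152, 160 and 166 CPM at 20 h in STK19_KO1 against 87.4, 88.0 and 87.7 CPM at 0 h, and 126, 128 and 125 CPM at 20 h in STK19_KO2 against 78.5, 71.6 and 76.2 CPM at 0 h. In WT it had 87.0, 88.4 and 87.0 CPM at 20 h against 94.6, 86.4 and 82.5 CPM at 0 h. The groups did not overlap in any knockout line and were interleaved in WT. PTTG1 rose by log2 1.2, 0.86 and 0.74 in the knockouts (SE 0.09 each) and had -0.01 in WT, not called.

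CDC25B had 254, 273 and 266 CPM at 20 h against 164, 161 and 162 CPM at 0 h in CSB_KO, and 238, 248 and 251 CPM at 20 h against 190, 224 and 220 CPM at 0 h in WT. The groups did not overlap in either line, and its log2 fold changes were 0.70, 1.03, 1.03 and 0.22 in the 4 lines. UBE2C, the ubiquitin-conjugating enzyme of the anaphase-promoting complex, rose by 1.01, 0.85, 0.69 and 0.14, and the WT call was lost when any of 4 single libraries was left out (WT 0 h replicate 1 or 2, WT 20 h DMSO replicate 2 or 3). BIRC5 rose in the knockouts by 1.03, 0.54 and 0.55 and had 0.02 in WT, not called. KIF20A rose in the knockouts (0.25, 0.77 and 0.48) and fell in WT (-0.12), its CSB_KO value turning to -0.0554 under library totals. KIF2C (MCAK), a microtubule-depolymerizing kinesin of centromeres, rose in all 4 lines by 0.42, 0.81, 0.75 and 0.51.

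The central kinases and cyclins differed among lines at 20 h. CCNB1 had 192, 192 and 192 CPM at 20 h in CSB_KO against 248, 250 and 247 CPM at 0 h, where it fell, with a log2 fold change of -0.37, and 193, 190 and 187 CPM at 20 h in WT against 287, 260 and 268 CPM at 0 h, where it fell, with a log2 fold change of -0.51. In STK19_KO1 it had 303, 308 and 316 CPM at 20 h against 246, 249 and 261 CPM at 0 h, a rise of 0.29, and in STK19_KO2 the difference was -0.03, not called. AURKA had 68.3, 70.6 and 66.1 CPM at 20 h against 117, 120 and 120 CPM at 0 h in CSB_KO. It had 165, 165 and 172 CPM at 20 h against 133, 125 and 130 CPM at 0 h in STK19_KO1, and 118, 117 and 118 CPM at 20 h against 130, 116 and 119 CPM at 0 h in WT. The AURKA groups were apart downwards in CSB_KO, apart upwards in STK19_KO1 and overlapping in WT, with log2 fold changes of -0.80, 0.37 and -0.05 (WT not called) and 0.09 in STK19_KO2, not called. PLK1 fell in CSB_KO (-0.36) and WT (-0.36), rose in STK19_KO1 (0.27) and had -0.09 in STK19_KO2, not called. CDK1 rose in the STK19 knockouts (0.50 and 0.60) and had 0.10 in CSB_KO and 0.12 in WT, neither called, the CSB_KO value turning to -0.21 under library totals. MYBL2 rose in CSB_KO (0.40) and had -0.04, 0.08 and 0.05 in STK19_KO1, STK19_KO2 and WT, none called.

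**Figure D2:**
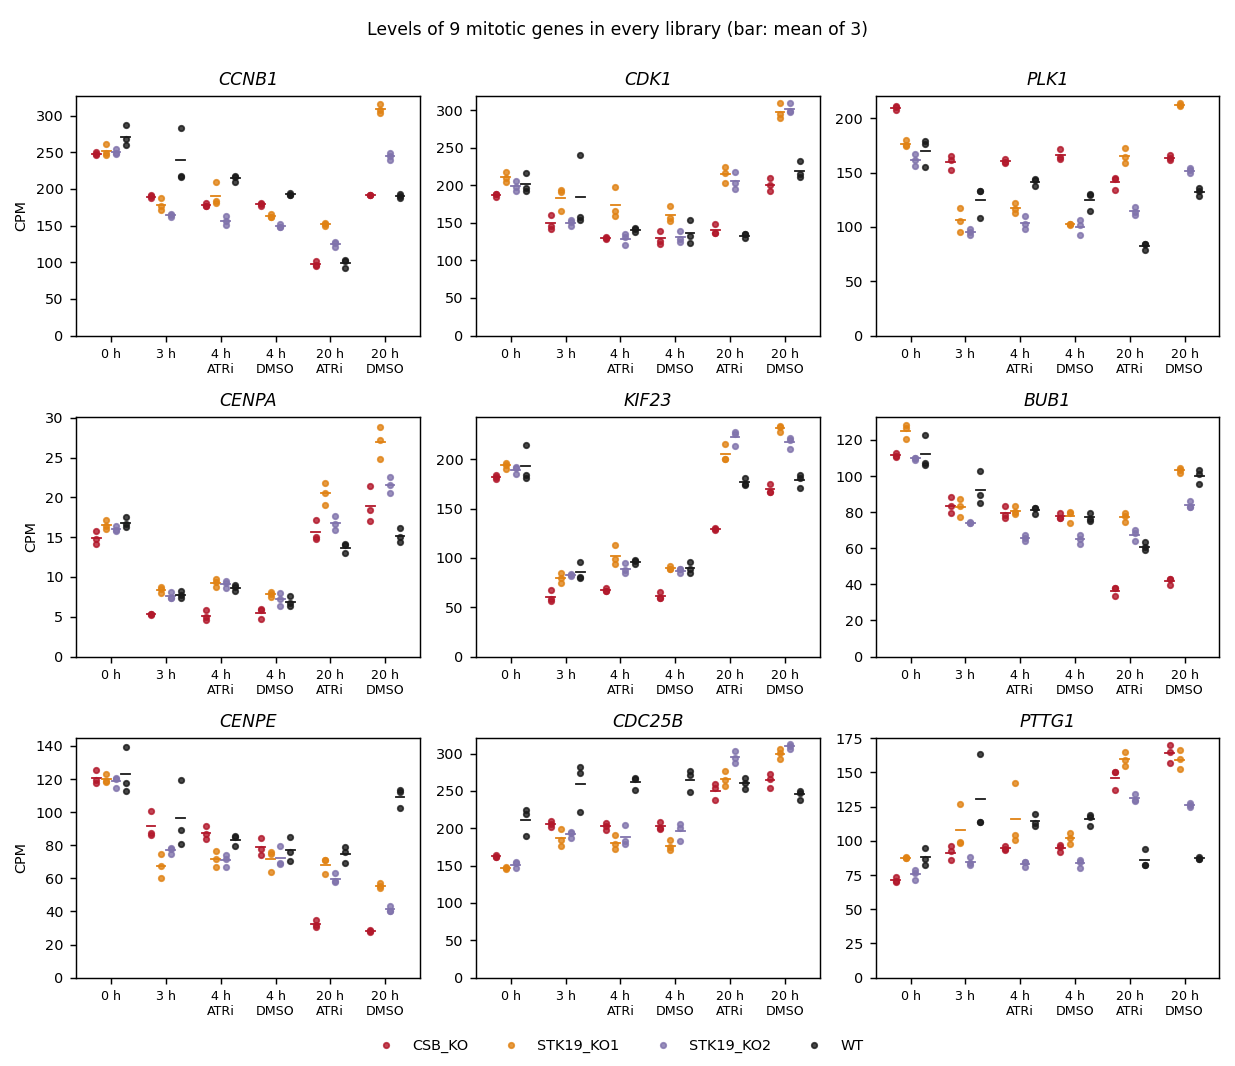
CPM (vertical axes, starting at 0) of 9 mitotic genes in every library, by time and treatment (horizontal), for CSB_KO, STK19_KO1, STK19_KO2 and WT cells; points are single libraries and bars the mean of 3. KIF23 and CENPA dip at 3 h and 4 h and are back near or above 0 h at 20 h in DMSO, CENPE stays near 28 CPM in CSB_KO at 20 h, and CCNB1 is lower with ATRi than with DMSO in every line at 20 h.

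The interaction test of the 20 h DMSO response against 0 h called 26 members negative and 9 positive for CSB_KO minus WT (all tested genes, 36.3% and 30.9%), with a member median of -0.35. The farthest were SPC25 (-2.01, SE 0.17), CENPE (-1.93, SE 0.12) and ANLN (-1.84, SE 0.10), and PTTG1 (1.2), BIRC5 (1.01) and UBE2C (0.88) on the other side. Under library totals the counts were 36 and 4. For the mean of the STK19 knockouts minus WT, 14 were negative and 19 positive (32.7% and 22.8%). CENPE (-1.14), HMMR (-0.82) and ASPM (-0.74) were the most negative, and CDC25B (0.82), PTTG1 (0.81) and KIF20A (0.75) the most positive.

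The direction at 20 h varied with the length of the gene. The genomic span of the members ran between 4.22 kb (CDC20) and 131 kb (KIF4A), with 6 members below 10 kb, 17 of 10 to 30 kb, 9 of 30 to 60 kb and 13 above 60 kb. In CSB_KO the medians of the log2 fold change at 20 h in DMSO for these 4 classes of members were 0.31, -0.18, -0.76 and -1.51, against 0.73, 0.43, -0.08 and -0.92 for all tested genes of the same classes. In STK19_KO1 the member medians were 0.64, 0.29, 0.12 and -0.39, against 0.31, 0.26, 0.00 and -0.63 for all genes, and in STK19_KO2 they were 0.49, 0.23, 0.05 and -0.46, against 0.37, 0.30, 0.03 and -0.71. In WT the member medians were -0.10, 0.10, 0.05 and 0.05, against 0.21, 0.17, 0.08 and -0.21 for all genes. Spearman's rho between span and the log2 fold change over the 45 members, given as a description because the points share libraries, was -0.67, -0.70, -0.62 and 0.24 in CSB_KO, STK19_KO1, STK19_KO2 and WT, against -0.56, -0.49, -0.51 and -0.42 over all tested genes. At 3 h the member values were -0.38, -0.48, -0.41 and -0.33, against -0.46, -0.57, -0.60 and -0.50. Among the exceptions, PLK4 (18 kb) fell in CSB_KO (-0.99) and CENPA (37 kb) rose there by 0.35.

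**Figure D3:**
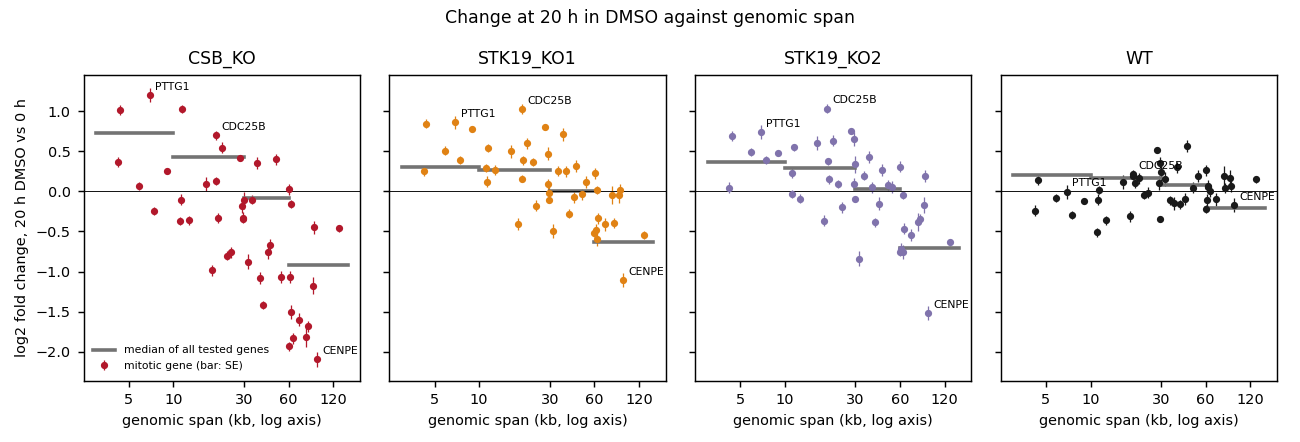
Log2 fold change at 20 h in DMSO against 0 h (vertical) by genomic span in kb (horizontal, log axis) for the 45 mitotic genes in each line; points are genes with SE bars and grey lines the median of all tested genes in 4 span classes. In the 3 knockout lines the members below 10 kb, such as PTTG1, have medians above 0. Those above 60 kb, such as CENPE, have medians below 0. Single members go the other way, down to -0.24 below 10 kb in CSB_KO and up to 0.31 above 60 kb in STK19_KO2. The WT points lie between -0.51 and 0.56.

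The 20 h DMSO libraries were also compared with the 4 h DMSO libraries. In CSB_KO 14 members rose and 18 fell (all tested genes, 34.6% and 37.2%), with a median of 0.00. In STK19_KO1 35 rose and 3 fell (32.3% and 33.4%), in STK19_KO2 34 rose and 4 fell (31.6% and 34.9%), and in WT 30 rose and 6 fell (34.1% and 35.5%, or 40 rose and 0 fell under library totals). The medians in those 3 lines were 0.53, 0.52 and 0.30. In all 4 lines 9 members rose (10.2% of all genes): CCNA2, CDK1, CENPA, CKAP2, INCENP, KIF18A, KIF23, KIF2C and UBE2C. CENPA rose by log2 1.80, 1.79, 1.58 and 1.15, KIF23 by 1.47, 1.37, 1.32 and 1.00, and INCENP by 0.66, 1.35, 1.44 and 0.67. Other members parted by line, with CENPE at -1.48, -0.37 and -0.81 in the knockouts and 0.50 in WT, and SPC24 at -0.85, -0.50, -0.67 and 0.26, all called. HMMR fell in CSB_KO (-0.64) and STK19_KO2 (-0.35), rose in WT (0.29) and had -0.09 in STK19_KO1, not called. AURKA had 0.02 in CSB_KO, not called and turning to -0.15 under library totals, and rose by 1.32, 0.91 and 0.82 in the other lines.

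As a share of all counts, the 45 genes together took 0.671% in CSB_KO, 0.609% in STK19_KO1, 0.628% in STK19_KO2 and 0.647% in WT libraries at 3 h, against 0.839%, 0.844%, 0.838% and 0.814% at 0 h (means of 3 libraries, with SDs of 0.00773 at 3 h and 0.0365 at 0 h in WT). At 20 h in DMSO the shares were 0.607%, 0.916%, 0.859% and 0.876%. The summed share of CSB_KO was lower at 20 h than at 3 h, but the direction turned with TMM scaling, under which the summed level of the 45 genes in CSB_KO was 6977 CPM at 20 h and 6792 CPM at 3 h.

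**Figure D4:**
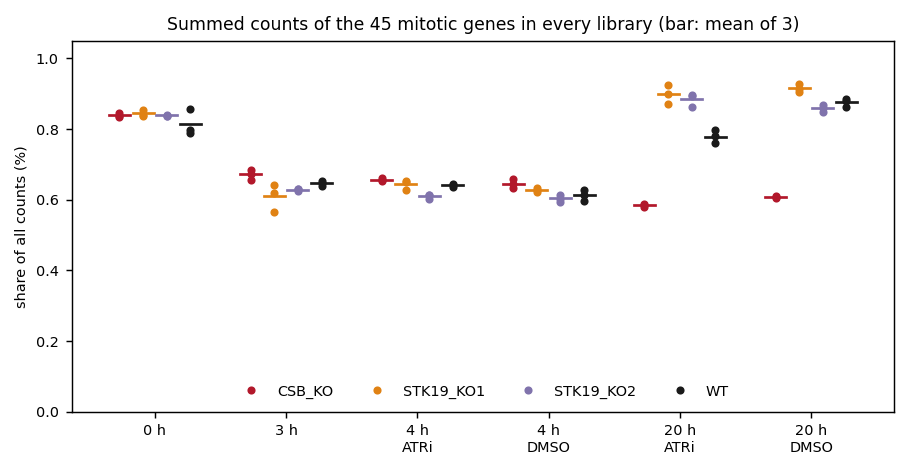
Summed counts of the 45 mitotic genes as a percentage of all counts (vertical, starting at 0) in every library by time and treatment (horizontal), for the 4 lines; points are libraries and bars the mean of 3. All lines are lower at 3 h and 4 h than at 0 h, and at 20 h CSB_KO libraries stay near 0.6% while the other lines lie at 0.779% or above on average.

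At 4 h few of these genes differed between ATRi and DMSO. In CSB_KO no member was called by edgeR (all tested genes, 2.7% higher and 0.278% lower, and 3 members had an unadjusted p below 0.05). In STK19_KO2 none was called either (0.194% and 0.0259%, and 2 members had an unadjusted p below 0.05). In STK19_KO1, AURKA (0.22, SE 0.05, adjusted p = 0.017) and CCNB1 (0.23, SE 0.05, adjusted p = 0.011) rose (all genes, 0.776% and 0.129%), and both calls were lost without the ATRi replicate 1 that lay apart. In WT 4 members rose by edgeR and 0 fell (2.03% and 0.627%). CENPA had 9.03, 8.70 and 8.19 CPM with ATRi against 6.30, 6.69 and 7.55 CPM with DMSO in WT, with no overlap (log2 0.33, SE 0.09, adjusted p = 0.019 by edgeR). TTK (0.30), PLK4 (0.30) and BUB1B (0.19) were the others. The WT count was 0 to 3 when single libraries were left out, and 13 members rose and 1 fell without the 5 libraries that lay apart, which include WT 4 h DMSO replicate 1. Neither interaction with line at 4 h called a member (CSB_KO, 2.33% of all genes positive and 0.873% negative, 7 members with an unadjusted p below 0.05; STK19, 0.00646% and 0%, 2 members). For CSB_KO, 3 members were called under library totals and 5 without the 5 libraries that lay apart, all negative. MYBL2, MKI67, the proliferation antigen Ki-67, and UBE2C had the lowest means over the 4 lines, at -0.05, -0.05 and -0.03, none called in any line.

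At 20 h, many of the mitotic entry and checkpoint genes were lower with ATRi than with DMSO in every line. In CSB_KO 16 members fell and 4 rose against DMSO (all tested genes, 17.5% and 14.1%). In STK19_KO1 27 fell and 14 rose (30.1% and 31.5%), in STK19_KO2 19 fell and 15 rose (27.7% and 30.5%), and in WT 26 fell and 9 rose (33.7% and 30.2%). The member medians were -0.08, -0.18, -0.07 and -0.28. In all 4 lines 11 members fell (8.78% of all genes): BUB1, BUB1B, CCNA2, CCNB1, CCNB2, CDK1, NUF2, PLK1, SPC25, TTK and UBE2C. The members that rose in all 4 were KIF2C and MYBL2 (8.16% of all genes). By role, 5, 8, 6 and 7 of the 10 entry genes and 4, 6, 6 and 5 of the 7 checkpoint and anaphase genes fell in CSB_KO, STK19_KO1, STK19_KO2 and WT, and no checkpoint or anaphase gene rose in any line. Of the 15 spindle and cytokinesis genes, 3, 6, 1 and 6 fell and 2, 8, 9 and 6 rose.

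CCNB1 had the largest mean decrease over the 4 lines. It had 95.2, 96.5 and 102 CPM with ATRi against 192, 192 and 192 CPM with DMSO in CSB_KO, and 149, 154 and 152 CPM with ATRi against 303, 308 and 316 CPM with DMSO in STK19_KO1. In STK19_KO2 it had 126, 127 and 121 CPM with ATRi against 239, 245 and 249 CPM with DMSO, and in WT 102, 92.3 and 102 CPM with ATRi against 193, 190 and 187 CPM with DMSO. Within every line all ATRi libraries lay far below all DMSO libraries. The log2 fold changes of CCNB1 were -0.97, -1.03, -0.97 and -0.95 (SE 0.05 each, adjusted p at most 1.1e-21 by edgeR) although the DMSO levels of the lines differed.

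CDK1 had 149, 137 and 136 CPM with ATRi against 209, 201 and 192 CPM with DMSO in CSB_KO, and 217, 204 and 225 CPM against 289, 295 and 310 CPM in STK19_KO1. It had 195, 218 and 204 CPM with ATRi against 298, 309 and 299 CPM with DMSO in STK19_KO2, and 135, 129 and 135 CPM against 232, 211 and 215 CPM in WT. None of these pairs overlapped, and CDK1 fell, with log2 fold changes of -0.52, -0.47, -0.56 and -0.72. SPC25 had 5.43, 4.20 and 5.21 CPM with ATRi against 8.84, 8.17 and 8.32 CPM with DMSO in CSB_KO, and 23.6, 22.8 and 22.3 CPM against 39.9, 35.7 and 37.3 CPM in WT, and it fell, with log2 fold changes of -0.80, -1.02, -0.63 and -0.72. Its partner NUF2 fell, with log2 fold changes of -0.34, -0.50, -0.36 and -0.22. CCNA2, cyclin A2, fell, with log2 fold changes of -0.55, -0.43, -0.32 and -0.30, TTK at -0.62, -0.55, -0.40 and -0.36, and UBE2C at -0.30, -0.34, -0.32 and -0.65.

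Several decreases were larger in WT than in CSB_KO cells, with called interactions of 0.69 for AURKA, 0.47 for PLK1 and 0.52 for BUB1 (adjusted p at most 2.9e-06 by edgeR). AURKA had 72.3, 70.2 and 69.4 CPM with ATRi against 118, 117 and 118 CPM with DMSO in WT, a log2 fold change of -0.73. In the knockouts its values were -0.04 in CSB_KO, not called, and -0.22 and -0.25 in the STK19 lines, where it fell. PLK1 had 84.7, 84.0 and 78.9 CPM with ATRi against 129, 136 and 133 CPM with DMSO in WT, and fell, with log2 fold changes of -0.21, -0.36, -0.41 and -0.68 in the 4 lines. BUB1 had 59.1, 63.3 and 60.5 CPM with ATRi against 103, 95.9 and 101 CPM with DMSO in WT, and fell, with log2 fold changes of -0.20, -0.41, -0.31 and -0.72, its CSB_KO call being lost without ATRi replicate 3 (-0.14). FOXM1 fell in the STK19 knockouts (-0.29 and -0.31) and WT (-0.28) and had -0.06 in CSB_KO, not called. CDC20 fell in the same 3 lines (-0.28, -0.31 and -0.37) and had -0.07 in CSB_KO, not called. KIF20A fell in CSB_KO (-0.27), STK19_KO1 (-0.29) and WT (-0.47) and had -0.02 in STK19_KO2, not called, and TOP2A fell in WT (-0.46) and had -0.04, 0.10 and 0.10 in the other lines, none called.

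The members that rose with ATRi included the activator MYBL2 and several spindle genes. MYBL2 had 722, 827 and 784 CPM with ATRi against 672, 696 and 684 CPM with DMSO in CSB_KO, and 774, 803 and 724 CPM against 555, 548 and 539 CPM in STK19_KO1. It had 629, 641 and 663 CPM with ATRi against 466, 478 and 475 CPM with DMSO in STK19_KO2, and 911, 875 and 855 CPM against 529, 570 and 561 CPM in WT. No pair overlapped, the gap being widest in WT, and MYBL2 rose by 0.19, 0.49, 0.45 and 0.67. The CSB_KO call was lost when ATRi replicate 2 or 3 or DMSO replicate 1 or 3 was left out. MKI67 rose in the STK19 knockouts (0.49 and 0.70) and had 0.00 in CSB_KO and 0.19 in WT, neither called. KIF18A rose in the STK19 knockouts (0.38 and 0.42) and WT (0.47) and had -0.08 in CSB_KO, not called, and KIF2C rose by 0.10, 0.23, 0.29 and 0.40.

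**Figure D5:**
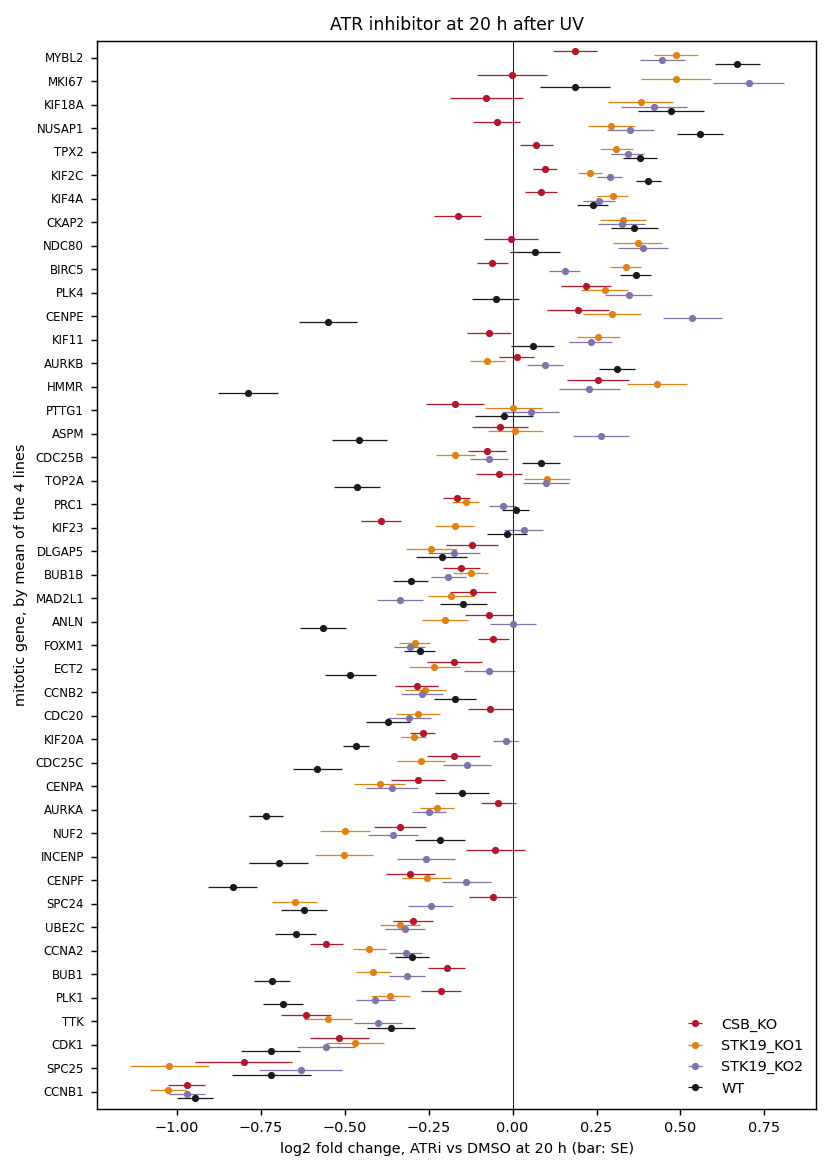
Log2 fold change of ATRi against DMSO at 20 h (horizontal) for the 45 mitotic genes (vertical, ordered by the mean of the 4 lines), with points and SE bars for CSB_KO, STK19_KO1, STK19_KO2 and WT. CCNB1 lies near -1 in all 4 lines, MYBL2 lies right of 0 in all 4, and HMMR, at -0.79, and CENPE, at -0.55, lie left of 0 in WT and right of 0 in the knockouts.

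The interaction of ATRi with line at 20 h was called for 31 members in CSB_KO minus WT, 18 positive and 13 negative (all tested genes, 24.7% and 26.9%), and for 22 in the mean of the STK19 knockouts minus WT, 17 positive and 5 negative (20.7% and 20.2%). Under library totals these splits were 21 and 8, and 21 and 1. HMMR had 47.0, 42.1 and 45.4 CPM with ATRi against 35.3, 39.3 and 37.8 CPM with DMSO in CSB_KO, and 44.0, 49.0 and 49.7 CPM against 84.5, 78.4 and 84.0 CPM in WT. HMMR rose in CSB_KO, STK19_KO1 and STK19_KO2 (0.25, 0.43 and 0.23) and fell in WT (-0.79), with interactions of 1.04 for CSB_KO and 1.12 for the STK19 knockouts. CENPE rose in the STK19 knockouts (0.30 and 0.53), had 0.20 in CSB_KO, not called, and fell in WT (-0.55), with interactions of 0.74 and 0.97. AURKA had an interaction of 0.69 for CSB_KO, and CENPF, a kinetochore and spindle protein, 0.64 for the STK19 knockouts. On the negative side were NUSAP1, a microtubule-bundling protein (-0.60), KIF18A (-0.55) and CKAP2 (-0.53) for CSB_KO, and AURKB (-0.30), NUSAP1 (-0.24) and CDC25B (-0.21) for the STK19 knockouts. The DMSO libraries at 20 h enter both this comparison and that of 20 h with 0 h, so the CENPE and HMMR values of the 2 comparisons are not independent.

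Across the 24 group means the members did not all vary together. AURKA (Pearson r 0.94), TTK (0.92) and CCNA2 (0.90) followed the mean of the other members most closely, as a description over groups that share lines and times. MYBL2 (-0.20), MAD2L1 (-0.16), SPC24 (-0.16), BIRC5 (-0.09), PTTG1 (0.01), CDC25B (0.08) and HMMR (0.13) did not. Outside the list, TMEM165 (0.950), RALA (0.933) and POLR2B (0.932) were the tested genes most like the mean of the members.

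Other cell-cycle genes gave context for these values. Of 62 further mitotic genes, 34, 40, 37 and 31 fell and 15, 12, 13 and 19 rose at 3 h in CSB_KO, STK19_KO1, STK19_KO2 and WT, among them ARHGAP11A, which fell, with log2 fold changes of -1.38, -1.39, -1.24 and -1.33, and HASPIN, a histone H3 kinase of mitosis, which rose by 0.89, 0.79, 1.06 and 1.07. At 20 h in DMSO 28, 21, 22 and 13 of the 62 fell and 26, 35, 32 and 27 rose, where 40.5%, 37%, 37.8% and 25.4% of all tested genes fell and 38.3%, 32.1%, 33.8% and 30% rose. NEK2, a centrosome kinase, rose by 1.60, 1.56, 1.64 and 0.74, and CIT, the citron kinase of cytokinesis, fell, with log2 fold changes of -1.51, -1.40 and -1.5 in the knockouts and had -0.04 in WT, not called. With ATRi at 20 h, 13, 16, 13 and 22 fell and 8, 27, 28 and 26 rose, where 17.5%, 30.1%, 27.7% and 33.7% of all tested genes fell and 14.1%, 31.5%, 30.5% and 30.2% rose. Of 21 genes of the anaphase-promoting complex and cohesin, 14, 13, 13 and 6 fell and 4, 6, 7 and 1 rose at 20 h in DMSO, with the cohesin regulator PDS5B at -2.78, -1.29, -1.51 and -0.14, the last not called. PDS5B was the lowest of these genes in CSB_KO only. The lowest in STK19_KO1, STK19_KO2 and WT had -2.10, -2.42 and -1.16. Of 16 regulators around the DREAM complex, 10, 10, 10 and 9 fell and 6, 4, 5 and 5 rose at 3 h (all tested genes, 29.3%, 30.6%, 28.5% and 28.8% fell and 32%, 29.9%, 29.1% and 33.6% rose), with the MuvB gene LIN54 at -2.01, -1.37, -1.14 and -1.66. With ATRi at 20 h, 5, 10, 9 and 10 of these 16 rose and 2, 4, 3 and 4 fell.

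Of 30 G1/S and replication genes, 18, 18, 18 and 22 rose and 6, 6, 6 and 4 fell at 3 h in CSB_KO, STK19_KO1, STK19_KO2 and WT, and CCNE1, cyclin E1, rose by 0.51, 0.84, 0.66 and 1.14. At that time 32%, 29.9%, 29.1% and 33.6% of all tested genes rose and 29.3%, 30.6%, 28.5% and 28.8% fell. With ATRi at 20 h 2, 23, 23 and 27 rose and 8, 1, 1 and 0 fell, with medians of -0.03, 0.36, 0.28 and 0.75. Of all tested genes, 14.1%, 31.5%, 30.5% and 30.2% rose and 17.5%, 30.1%, 27.7% and 33.7% fell in that comparison. E2F1 rose by 1.33, 0.96 and 1.3 in STK19_KO1, STK19_KO2 and WT and had 0.17 in CSB_KO, not called. CDKN1A, the p21 inhibitor of cyclin-dependent kinases, rose at 3 h by 1.01, 0.73, 0.99 and 0.82 and at 20 h in DMSO by 1.74, 1.63, 2.02 and 0.55. With ATRi at 20 h CDKN1A averaged 78.5, 107, 113 and 76.8 CPM in the 4 lines, against 71.6, 95.9, 93.0 and 50.2 CPM with DMSO, and it rose in STK19_KO1, STK19_KO2 and WT (0.16, 0.28 and 0.61), CSB_KO having 0.13, not called. Whether the changes of CDKN1A or of the G1/S genes had a part in those of the mitotic genes was not tested.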

How the data were processed

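Polyadenylated RNA from 72 libraries in 24 groups of 3 was extracted with RNeasy and prepared with the NEBNext Ultra II Directional kit, per the labels' protocols. The deposited values are unnormalised expected counts per gene, all whole numbers, so no rounding was needed. Per the submitters' processing notes, STAR, RSEM, deepTools 3.5.1 and GRCh38 were used, with no roles given. The coverage tracks were not used. From the counts, genes with too few counts were removed with edgeR's filter (minimum count 10, minimum total 15), which kept 15470 of 19324 genes, and libraries were scaled by TMM factors between 0.857 and 1.13. A quasi-likelihood model (R 4.3.3, edgeR 4.0.16, limma 3.58.1) was fitted to all 72 libraries with a mean for each group, so that all groups share the estimate of spread, and 27 contrasts of 2 groups and 8 interactions were tested with Benjamini-Hochberg adjustment at 0.05. The steps were tested on simulated counts with known changes. Gene spans are those given in the deposited table, exon lengths came from a GENCODE annotation of GRCh38, and promoter windows were matched by gene symbol. Rows without a symbol (572) stayed in the library sizes and tests. Group-wise replicate numbers were not used to pair the libraries in the main fit. The deviations of same-numbered libraries correlated below 0.1 for at least 1 number in each of the 27 comparisons. In WT the replicate 1 deviations at 0 h correlated at 0.20 with those at 3 h and at 0.15 with those at 4 h DMSO. These replicate 1 libraries all lay apart from their groups, and the labels do not say whether they shared a batch. Alternatives were DESeq2 1.42.0, other scalings, no filter, only the groups compared, a replicate block, each library left out, and, chosen after seeing the data, the 5 libraries apart left out.

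The members and all gene lists were chosen with earlier results of these data known. Values in every library or in full are given for 12 representatives of the roles, and values are also given for the 3 members with the highest and the 3 with the lowest mean log2 fold change over the 4 lines in each kind of comparison, and the 3 farthest in each direction among those called in each interaction; other members are named within their role. Genes outside the list were named only as the farthest of 4 fixed lists, with CDKN1A always. Genes shown with fewer libraries, and members picked as counterexamples to gene length, were chosen after their values were seen. Some genes of these lists are not reported here.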

Additional observations from a re-analysis of the deposited data

Results flagged for a closer look

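Each value here was flagged because the same contrast differed between a knockout line and WT by the interaction test of the edgeR fit, and no explanation of these differences was tested. For the 3 h response, 4 members differed in CSB_KO (all tested genes, 8.3% negative and 1.48% positive). In the mean of the STK19 knockouts 31 differed (17.1% and 10.1%). The log2 differences were -0.45 for PLK4, -0.41 for KIF23 and -0.35 for CENPA in CSB_KO, and -0.53 for ANLN, -0.48 for DLGAP5, -0.46 for HMMR and 0.49 for SPC24 in the STK19 knockouts. The CENPA difference was not called when any of 8 single libraries was left out. Without the 5 libraries that lay apart the STK19 differences of ANLN, DLGAP5, HMMR and SPC24 were -0.51, -0.33, -0.37 and 0.56.

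For the 20 h DMSO response, 35 members differed in CSB_KO (all tested genes, 36.3% negative and 30.9% positive). In the STK19 knockouts 33 differed (32.7% and 22.8%). In CSB_KO the farthest were SPC25 (-2.01), CENPE (-1.93), ANLN (-1.84), UBE2C (0.88), BIRC5 (1.01) and PTTG1 (1.2). In the STK19 knockouts they were CENPE (-1.14), HMMR (-0.82), ASPM (-0.74), KIF20A (0.75), PTTG1 (0.81) and CDC25B (0.82). The difference varied with gene length: Spearman's rho between genomic span and this difference over the 45 members was -0.74 in CSB_KO and -0.79 in the STK19 knockouts, against -0.34 and -0.26 over all tested genes. The medians of the differences in the 4 span classes, shortest first, were 0.49, -0.06, -1.03 and -1.5 for members in CSB_KO, against 0.50, 0.24, -0.17 and -0.58 for all tested genes. In the STK19 knockouts they were 0.65, 0.28, -0.10 and -0.41 for members, against 0.12, 0.09, -0.08 and -0.38 for all tested genes.

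For the ATRi response at 20 h, 31 members differed in CSB_KO. In the STK19 knockouts 22 differed (shares of all tested genes as given above for both). In CSB_KO the farthest were NUSAP1 (-0.60), KIF18A (-0.55), CKAP2 (-0.53), AURKA (0.69), CENPE (0.74) and HMMR (1.04). In the STK19 knockouts they were AURKB (-0.30), NUSAP1 (-0.24), CDC25B (-0.21), CENPF (0.64), CENPE (0.97) and HMMR (1.12), with CDC25B and NUSAP1 losing their calls when single libraries were left out.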

How the results depend on the processing

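Counts of called members stayed within 1.5 times under DESeq2, RLE size factors and no filter on low counts. They moved further under other settings. With only the groups compared, counts were 16 for WT at 3 h, 11 and 0 for the STK19 and CSB_KO interactions at 3 h, 6, 0 and 0 for ATRi at 4 h in CSB_KO, STK19_KO1 and WT, and 1 for its CSB_KO interaction. Under library totals they were 11 for the STK19 interaction at 3 h, and 1, 9 and 3 for ATRi at 4 h in STK19_KO2, in WT and in its CSB_KO interaction. Without the 5 libraries apart they were 16 for CSB_KO against WT at 0 h, and for ATRi at 4 h 3 in CSB_KO, 1 in STK19_KO2, 14 in WT, 5 in its CSB_KO interaction and 1 in its STK19 interaction.

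Leaving out each library gave 0 to 3 members for ATRi at 4 h in STK19_KO1 (0 without ATRi replicate 1 or DMSO replicate 2 or 3), 0 to 1 in STK19_KO2, 0 to 3 in WT (0 without ATRi replicate 1 or DMSO replicate 2), 0 to 2 for its CSB_KO interaction and 2 to 7 for the CSB_KO interaction at 3 h (2 without CSB_KO 0 h replicate 2, CSB_KO 3 h replicate 2 or 3, or WT 0 h replicate 3, and 7 without WT 3 h replicate 2 or 3). With the replicate block, the count for the CSB_KO interaction with ATRi at 4 h was 3, and 34 of 35 counts stayed within 1.5 times.

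For single genes, every reversal came from library totals. All genes together then moved by between -0.37 and 0.26 in median, and reversed values were AURKA -0.15 (CSB_KO) and CCNB1 0.25, CDC20 0.0140, FOXM1 0.24 and KIF20A 0.0884 (WT) for 20 h against 4 h DMSO, CDC20 -0.17, FOXM1 -0.0360 and KIF20A -0.13 at 3 h and CDC20 -0.19 and KIF20A -0.15 at 4 h in WT, and CDK1 -0.21, FOXM1 -0.17 and KIF20A -0.0554 at 20 h in CSB_KO. The cause of these changes was not tested. Leaving out single libraries ended the call in 78 combinations of a followed gene value and a library, and reversed none of the followed values. Member medians changed sign in 21 of 282 such fits, in 4 of 35 comparisons without the 5 libraries apart and in 1 of 35 under DESeq2, as for STK19_KO2 against WT at 0 h (0.05 without the 5 libraries, against -0.02). With no filter or only the groups compared, 2 of 35 changed sign in each setting. Under library totals 3 of 35 changed sign and 19 moved beyond the spread between libraries. The median at 20 h in CSB_KO went from -0.34 to -0.65 and that of its interaction from -0.35 to -0.72. The WT median at 3 h went from -0.18 to -0.38. Every member had at least 169 counts in each library.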
